A study of Mus musculus with 8 samples.

Results

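The genes described here are 10 that mark lipid-associated macrophages in published work: Trem2, Spp1, Apoe, Lpl, Fabp4, Fabp5, Gpnmb, Cd9, Lgals3 and Acp5. They were taken by name from the gene lists of the deposited matrices and are 10 of 27405 genes listed in any of the 4 libraries. The matrices hold droplet-based single-cell RNA counts of CD45+ cells sorted from tumours of MC38, a mouse colon carcinoma cell line, grown in wild-type mice. The control and LNP-Sirpa groups have 2 libraries each, all of 1 labelled batch, and the series concerns tumour-targeted degradation of SIRPα, an inhibitory receptor of myeloid cells. What the control mice received, the dose and timing of LNP-Sirpa, the age of the mice and whether libraries came from separate mice are not stated in the labels, so the p-values below measure only the spread between these libraries, which may be technical. In every list of 4 values the order is control 1, control 2, LNP-Sirpa 1 and LNP-Sirpa 2.

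Lipid-associated macrophages are known from obese fat, atherosclerotic plaque, injured brain and tumours, where macrophages take up cell debris and lipoproteins. TREM2 is a surface receptor for lipids and lipoproteins that signals through the adaptor TYROBP, and macrophages engaged through it raise genes for lipid binding, lysosomal breakdown and cholesterol export. Several of the 10 genes have other known sources: osteoclasts secrete the phosphatase encoded by Acp5, fat and capillary endothelial cells express Fabp4, and Cd9 is a tetraspanin of many cell types.

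Cells were assigned to types by summed UMIs of marker genes, with none of the 10 genes among the markers, and 37717 of the deposited cells passed the cell filter. A UMI is a molecular tag that lets each captured RNA molecule be counted once. The libraries held 68654004 to 90789729 UMIs, and 23570 cells fell in the monocyte/macrophage gate. Within it, 16294 passed a C1q macrophage gate and 1811 a monocyte gate. The monocyte gate held 173, 102, 763 and 773 cells, and a resident-like macrophage gate 2631, 2665, 485 and 100, so the makeup of the macrophage pool differed between the groups. Levels are counts per 1000000 UMIs (CPM), summed over the cells of a gate in 1 library. Sirpa, the gene of the targeted receptor, stood at 565, 560.4, 479 and 356 CPM in the monocyte/macrophage gate. A fibroblast/stromal gate held 1200 cells although the sort was for CD45, and Ptprc, which encodes CD45, was at 27.3, 29.5, 42.6 and 29.7 CPM there against 262, 286, 437 and 369 in the monocyte/macrophage gate. The deposited cell names are running numbers, and 830 to 1242 names recurred between any pair of libraries, so the names do not show whether cells are shared.

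Against T cells, all 10 genes were higher in the monocyte/macrophage gate. Of all genes tested in that comparison 56.5% were called (edgeR quasi-likelihood test with the library as a block, Benjamini-Hochberg adjusted p under 0.05), with 29.8% higher and 26.8% lower. The label did not hold equally in the other comparisons. Spp1 was not separated from NK cells, Fabp5 and Fabp4 were higher in mature dendritic cells, and Cd9 and Gpnmb were higher in the fibroblast/stromal gate. Over NK cells 9 of 10 genes were higher in the monocyte/macrophage gate and 0 lower (of all genes 40.5% were called, 24.4% higher and 16.1% lower). Over all dendritic cells 8 were higher and 1 lower (34.3%, 19.6% and 14.7%). Over mature dendritic cells 8 were higher and 2 lower (35.3%, 20.2% and 15%), and over the fibroblast/stromal gate 7 were higher and 2 lower (66.3%, 35% and 31.3%). Within the macrophage gate, C1q macrophages were higher than monocytes for 3 genes (Apoe, Trem2 and Acp5) and lower for 2 (Cd9 and Lgals3), where 25.5% of all genes were called, 13.2% higher and 12.3% lower. The median log2 difference over the 10 genes was 2.21 against T cells and 2.01 against mature dendritic cells, beside 0.026 and 0.19 over all genes tested.

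**Figure D1:**
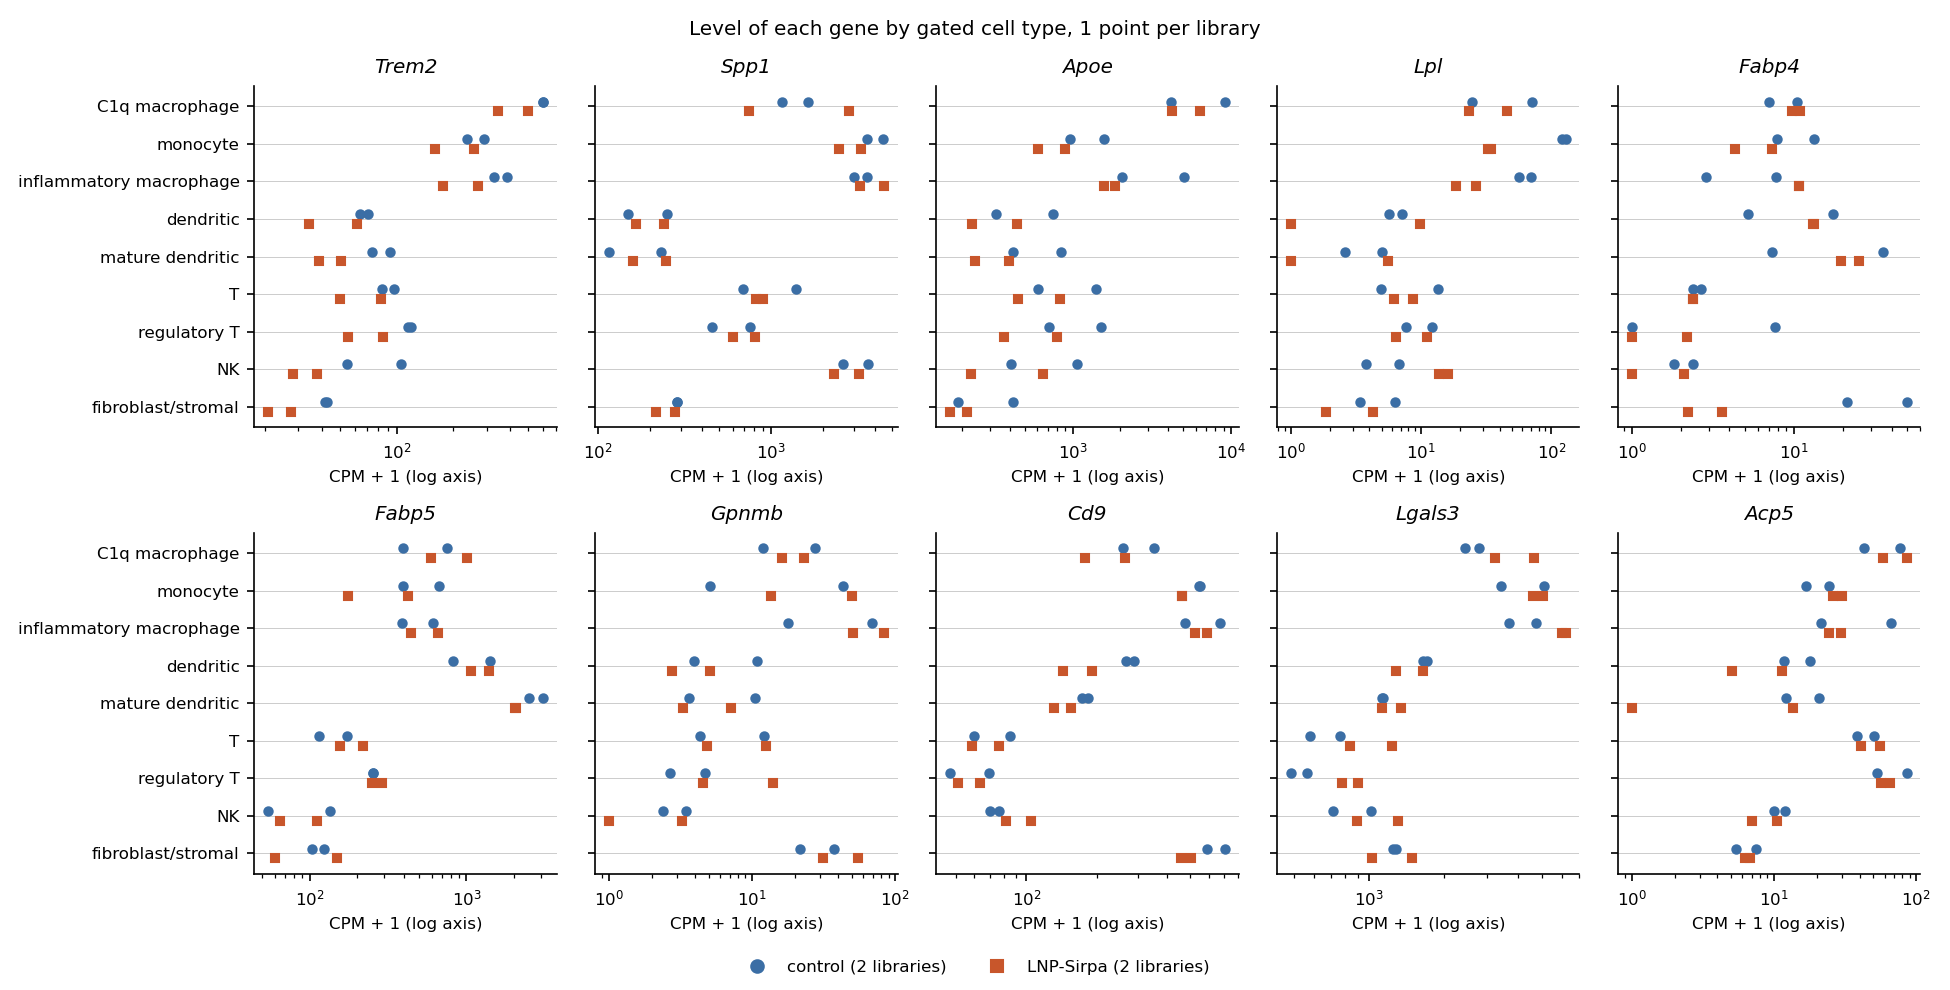
Level of each of the 10 genes (CPM + 1, log axis) in 9 gated cell types, with 1 point per library and colour for the group. Spp1 in NK cells overlaps the monocyte and inflammatory macrophage values, Fabp5 is highest in mature dendritic cells, and Acp5 in T cells lies beside the C1q macrophage values.

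Trem2, the lipid receptor of this state, measured 539, 566, 287 and 424 CPM in the monocyte/macrophage gate. Both LNP-Sirpa libraries were below both controls. Among the 5 subset gates it was highest in the resident-like gate at 629, 679, 461 and 594 CPM and in C1q macrophages at 594, 596, 344 and 495 CPM, and monocytes held 289, 236, 158 and 256 CPM. The monocyte values lay below the C1q macrophage value of the same library in 4 of 4 libraries, and C1q macrophages exceeded monocytes by 1.04 ± 0.093 log2 units (SE, edgeR, adjusted p 1.60e-10), in a comparison where 25.5% of all genes were called. T cells held only 15.4% to 19.1% of the monocyte/macrophage level of the same library.

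After every cell was thinned to 2000 UMIs, 59.5%, 62.5%, 37.6% and 49.6% of monocyte/macrophage cells had a Trem2 UMI. Without thinning the shares were 79.5%, 81%, 63.5% and 75.3%. In T cells, which are not known to make Trem2, the thinned shares were 15.4%, 15.2%, 7.43% and 9.45%. Median depths were 6628 UMIs per cell in the monocyte/macrophage gate and 5035 in T cells, and 726, 990, 676 and 556 macrophage cells and 7, 46, 110 and 108 T cells were too shallow to thin. The share in macrophages therefore stood above this background in each library.

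Apoe encodes a secreted lipoprotein component that accepts exported cholesterol. Its level was 3667, 8521, 4736 and 3178 CPM in the monocyte/macrophage gate, and control 2 stood above the other libraries. Monocytes were lower in each library, at 968, 1578, 897 and 608 CPM. C1q macrophages exceeded monocytes by 2.51 ± 0.11 (log2 ± SE, edgeR, adjusted p 7.72e-11), the widest of the 10 differences in that comparison. The resident-like gate reached 5177, 11352, 9689 and 8277 CPM. With 4 of 4 libraries ordered the same way, Apoe and Trem2 shared the same ranking of resident-like, C1q and monocyte gates. Of the resident-like cells 90.9% (5343) were also in the C1q macrophage gate, so these gates are not separate observations.

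Spp1 encodes osteopontin, a secreted phosphoprotein that binds integrins and CD44. It ran the other way, at 4437, 3591, 2475 and 3294 CPM in monocytes, 3563, 3024, 3248 and 4479.7 CPM in the inflammatory macrophage gate (Inhba, Thbs1 and Cxcl3) and 1625, 1155, 747 and 2832 CPM in C1q macrophages. The monocyte value was above the C1q macrophage value in each library, but the size of the gap varied and the difference of -1.33 ± 0.38 log2 units did not pass the test (edgeR, adjusted p 0.103). NK cells held 3631, 2591, 3213 and 2297 CPM, above the monocyte/macrophage gate in 3 of 4 libraries. The monocyte/macrophage gate minus NK cells was -0.73 ± 0.42 log2 units (edgeR, adjusted p 0.295). NK cells thus carried Spp1 at 77.2% to 259% of the macrophage level, while the summed C1q genes stood at only 8.02% to 14.5% there.

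In T cells Spp1 was lower than in the monocyte/macrophage gate by a smaller margin than Apoe or Trem2. T cells held 1396, 691, 814 and 894 CPM, and the difference was 1.05 ± 0.27 log2 units (edgeR, adjusted p 0.0253). That call was not made without control 2 (adjusted p 0.0618), without LNP-Sirpa 1 (0.0662) or in the LNP-Sirpa libraries alone (0.0887).

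Lpl encodes lipoprotein lipase, which frees fatty acids from circulating triglyceride. The monocyte/macrophage gate held 76.7, 25.7, 39.7 and 25.2 CPM, and control 1 was above the rest. Few cells carried it: the thinned share with a UMI was 9.28%, 3.55%, 5.51% and 3.83%, against 22.2%, 8.68%, 12.7% and 11.6% without thinning. In T cells the thinned share was 0.334% to 1.79%. Levels in monocytes and C1q macrophages did not differ past the threshold, at -0.78 ± 0.52 log2 units (edgeR, adjusted p 0.394).

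Fabp4 and Fabp5 encode cytoplasmic carriers of fatty acids. Fabp5 was at 379, 719, 476 and 829 CPM in the monocyte/macrophage gate and at 3069, 2499.7, 2038 and 2076 CPM in mature dendritic cells, those gated by Ccr7, Fscn1, Ccl22, Cacnb3 and Socs2. All 4 mature dendritic values were above all 4 macrophage values. The macrophage gate minus mature dendritic cells was -2.18 ± 0.19 log2 units (SE, edgeR, adjusted p 5.88e-29), and in the control libraries alone it was -2.65 with an adjusted p of 0.329. Type 1 dendritic cells held only 73.7, 110.5, 58.2 and 101 CPM, from 50, 95, 78 and 4 cells. That gate was not tested. Regulatory T cells held 254, 253, 249 and 287 CPM, which was 34.6% to 67% of the macrophage level.

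Fabp4 was sparse, at 6.42, 9.56, 7.68 and 8.23 CPM in the monocyte/macrophage gate, with a thinned UMI in 0.989% to 1.3% of cells and in 0.0766% to 0.502% of T cells. Mature dendritic cells held 34.4, 6.36, 24 and 18.5 CPM, and the macrophage gate minus mature dendritic cells was -1.61 ± 0.32 log2 units (edgeR, adjusted p 4.92e-06). The mature dendritic levels rest on 26, 4, 21 and 3 UMIs, and in LNP-Sirpa 2 all 3 came from 1 cell. In control 1 and LNP-Sirpa 1 a single cell held 30.8% and 33.3% of them. Control 2 was the exception in direction, with a mature dendritic value below its macrophage value. Without control 1 the difference was -1.05 with an adjusted p of 0.0563.

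Gpnmb encodes a membrane glycoprotein of lysosome-rich cells and is a known target of MITF, and Acp5 encodes tartrate-resistant acid phosphatase, a lysosomal and secreted enzyme of osteoclasts and macrophages. MITF and its relatives TFE3 and TFEB bind E-box letters in lysosomal genes, so the promoter windows of both genes are shown here. RefSeq windows of 300 bases (250 before and 50 after a start site, build GRCm38.p6, which is not the GRCm39 build of the deposited counts) were found for 7 of the 10 genes, 12 windows in all. The M-box letters TCATGTG, read on both strands, matched 1 of the 12 windows, in Acp5, and 3.77% of all 32851 windows. The AP-1 letters TGACTCA, read on both strands, matched 1 of the 12, in Gpnmb, and 5.2% of all windows. The palindrome CACGTG matched 0 of the 12 and 7.15% of all windows. A match describes letters in a window only. The 2 windows with a match are printed 5′ to 3′ on the gene's strand, with the matched letters in capitals: Gpnmb at chr6:49036268-49036567 on the plus strand and Acp5 at chr9:22130549-22130848 on the minus strand.
Gpnmb: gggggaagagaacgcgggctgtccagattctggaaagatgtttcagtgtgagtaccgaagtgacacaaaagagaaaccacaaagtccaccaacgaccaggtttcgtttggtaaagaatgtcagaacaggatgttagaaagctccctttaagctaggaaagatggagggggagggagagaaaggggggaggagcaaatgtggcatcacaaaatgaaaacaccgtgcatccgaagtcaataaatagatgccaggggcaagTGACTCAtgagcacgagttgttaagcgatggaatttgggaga
Acp5: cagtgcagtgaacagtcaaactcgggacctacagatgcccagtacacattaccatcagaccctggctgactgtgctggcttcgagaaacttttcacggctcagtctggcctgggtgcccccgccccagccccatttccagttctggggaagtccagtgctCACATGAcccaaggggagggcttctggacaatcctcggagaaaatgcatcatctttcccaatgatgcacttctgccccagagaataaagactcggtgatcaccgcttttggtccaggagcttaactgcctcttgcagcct

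Gpnmb was at 11.3, 32.2, 17.8 and 28.8 CPM in the monocyte/macrophage gate, and the groups overlapped. The inflammatory macrophage gate held more in each library, at 16.8, 67.4, 49.8 and 82.3 CPM. In the fibroblast/stromal gate it stood at 20.7, 36.2, 30.5 and 54.1 CPM, again above the macrophage gate in each library. The macrophage gate minus the stromal gate was -0.54 ± 0.14 log2 units (edgeR, adjusted p 0.00465). In the control libraries alone it was -0.39 with an adjusted p of 0.073.

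Cd9 encodes a tetraspanin found in membranes and extracellular vesicles. It was at 388, 276, 252 and 311 CPM in the monocyte/macrophage gate, 552, 542, 459 and 459 CPM in monocytes, 670.1, 476, 589.6 and 525 CPM in the inflammatory gate and 702, 587, 502 and 456 CPM in the fibroblast/stromal gate. Each of these 3 gates was above the whole macrophage gate of the same library. C1q macrophages minus monocytes was -1.04 ± 0.11 log2 units (edgeR, adjusted p 1.44e-06), and the macrophage gate minus stromal cells was -0.74 ± 0.11 (edgeR, adjusted p 8.57e-05). The higher level over all dendritic cells, 0.42 ± 0.15, was called in the full comparison (adjusted p 0.0148) but in only 2 of 7 alternatives, where its adjusted p ran up to 0.578.

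Lgals3 encodes galectin-3, a lectin recruited to damaged lysosomes and secreted by activated macrophages. It was at 2643, 2916, 3530.02 and 4615 CPM in the monocyte/macrophage gate, with both LNP-Sirpa libraries above both controls. The inflammatory gate held 3683, 4700.2, 5987 and 6209.5 CPM and the resident-like gate 1583, 1468, 1933 and 2466 CPM. The inflammatory value was above the resident-like value in each library, the reverse of the order for Apoe. C1q macrophages minus monocytes was -0.56 ± 0.099 log2 units (edgeR, adjusted p 3.65e-04), and in the LNP-Sirpa libraries alone it was -0.40 with an adjusted p of 0.0721.

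Acp5 was at 43.3, 82.8, 67.7 and 49.8 CPM in the monocyte/macrophage gate, with overlapping groups. C1q macrophages held 41.7, 75.9, 84.6 and 57.8 CPM and monocytes 23.3, 15.7, 25.2 and 29.1 CPM, a difference of 1.28 ± 0.16 log2 units (edgeR, adjusted p 7.43e-06). Regulatory T cells reached the macrophage level, at 51.8, 84.8, 55.3 and 64.4 CPM, and CD8 T cells held 48.5, 47.7, 39.3 and 51.1 CPM, while NK cells held 9.03, 11, 9.44 and 6.07 CPM. The macrophage gate exceeded all T cells by only 0.54 ± 0.15 log2 units (edgeR, adjusted p 0.0121), a call not made without control 2 (0.45, adjusted p 0.0612) or in the LNP-Sirpa libraries alone (0.50, adjusted p 0.144).

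Free RNA in droplets places transcripts of abundant cells in all other cells, so each lymphocyte value was set beside that of genes lymphocytes are not known to make. The summed C1qa, C1qb and C1qc level in T cells was 17% to 18.1% of that in the monocyte/macrophage gate of the same library. Apoe (14.3% to 17.6%) and Trem2 (15.4% to 19.1%) were close to this yardstick. Cd9 stood at 21.3% to 24.3%, Lgals3 at 21.9% to 26.7% and Fabp5 at 24% to 32.6%, somewhat above it. Gpnmb was at 21.3% to 40.3%, Lpl at 13.1% to 30.5% and Fabp4 at 14.4% to 26.1%. Gpnmb was above the yardstick in each library, and Lpl and Fabp4 lay on both sides of it. Gpnmb in T cells was low, at 3.36 to 11 CPM in control and 3.81 to 11.6 CPM in LNP-Sirpa. Over all kept cells the C1q genes were at 68.2% to 80.9% of the macrophage level. Cd9 was at 84.4% to 99.7%, Gpnmb at 81.8% to 103%, Fabp5 at 78.5% to 93.7% and Lgals3 at 70.7% to 86.6%. The part of free RNA from other cells in the T cell shares was not tested. Spp1 in T cells stood at 30% to 69.7%, above the yardstick in each library. It differed between T gates, at 26.8% to 35.2% in CD8 T and 27.2% to 48.4% in regulatory T cells. In the other T cells, those in neither gate, it was at 101%, 109%, 111% and 37.3%. The summed C1q genes were at 13.6% to 21.9% in those cells.

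Acp5 had the highest share of the 10 in T cells in 3 of 4 libraries (Spp1 was above it in LNP-Sirpa 1), at 58.6% to 109%. The regulatory T share was 81.7% to 129%, the CD8 T share 57.6% to 112% and the NK share 12.2% to 20.9%. After thinning, 11.4%, 8.53%, 8.04% and 12.2% of T cells had an Acp5 UMI, against 6.55%, 11.4%, 10.6% and 6.98% of monocyte/macrophage cells. Unthinned shares were 21.3%, 23.4%, 18.8% and 23.3% in T cells and 17.5%, 26.2%, 24% and 21.4% in macrophages. A share of T cells with an Acp5 UMI near that of macrophages was thus present in both groups of libraries.

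**Figure D2:**
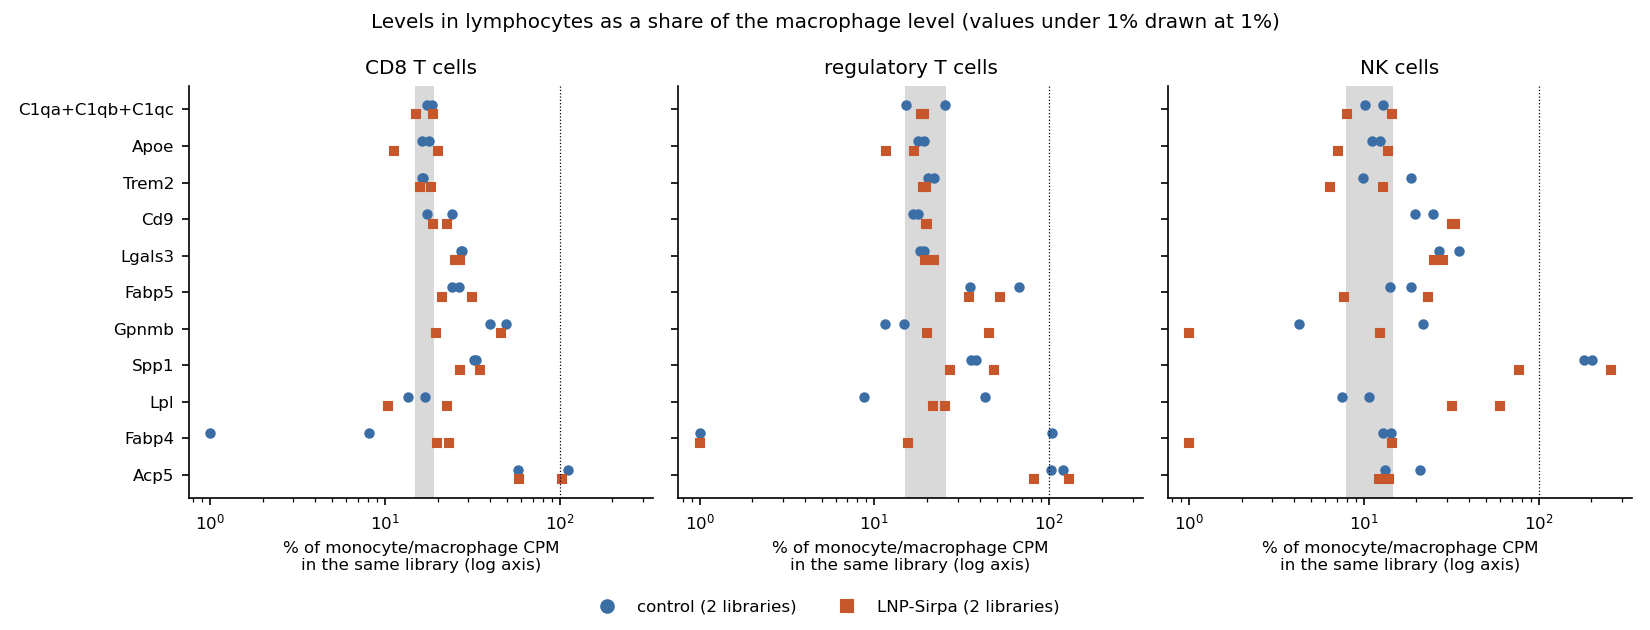
Level of each gene in CD8 T, regulatory T and NK cells as a percent of the monocyte/macrophage level of the same library (log axis, 1 point per library, values under 1% drawn at 1%), with the summed C1q genes in the top line and their range shaded. Acp5 lies at 57.6% to 112% in CD8 T cells and at 81.7% to 129% in regulatory T cells. Spp1 in NK cells lies at 77.2% to 259%, and Apoe and Trem2 lie near the shaded range.

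No member was called between LNP-Sirpa and control in the monocyte/macrophage gate, where 2% of all genes were called (323 of 16152, edgeR quasi-likelihood test). The count at an unadjusted p under 0.05 was also 0 of 10 (20.4% of all genes), and DESeq2 called 0 (10% of all genes with an adjusted p). The groups did not overlap for 2 of the 10 genes, against 52.9% of all genes. That share was not taken in the other gates, so a lack of overlap there has no such background beside it. Lgals3 differed by 0.70 ± 0.30 log2 units (SE, adjusted p 0.264) and Trem2 by -0.48 ± 0.29 (adjusted p 0.404). Without LNP-Sirpa 1 the Lgals3 difference was 0.97 with an adjusted p of 0.0266, and without LNP-Sirpa 2 the Trem2 difference was -0.93 with an adjusted p of 0.0284. The median over the 10 genes was 0.063, beside -0.010 over all genes. For the other 8 genes the estimates ran from -0.53 ± 0.45 for Lpl to 0.55 ± 0.50 for Spp1. The resident-like, C1q and monocyte gates changed in size between the groups, and the part of that in the pooled values was not tested. Within C1q macrophages 0 of 10 were called (0.00659% of all genes, by edgeR). At an unadjusted p under 0.05 it was 0 of 10 (16%), and DESeq2 called 0 where it called 5.42% of all genes with an adjusted p.

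Lpl was lower in LNP-Sirpa in 2 gates. In monocytes it was 128, 119, 31.7 and 33.4 CPM, from 187, 68, 161 and 162 UMIs in 54, 12, 68 and 83 cells. Both LNP-Sirpa values were far below both controls. Lpl changed by -1.87 ± 0.23 log2 units (SE, edgeR, adjusted p 0.00122), the only call among the 10 genes in monocytes, where 1.66% of all genes were called. In control 2, 1 cell held 42.6% of the UMIs, and without the highest cell of each library the levels were 116, 69.2, 29.2 and 29.8 CPM. With cells that also passed the inflammatory gate left out, the levels were 138, 126, 40.5 and 39.7 CPM. Of 12 alternatives 11 kept the call. With the gates' thresholds doubled, which left 30, 28, 342 and 228 cells, the levels were 78.9, 35.9, 20.1 and 44.8 CPM, the groups overlapped and the difference was -0.84 (adjusted p 0.634).

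The monocyte gate itself differed between the groups in its other markers. The summed C1q genes were at 2098, 1849, 1607 and 1577 CPM there, and the 4 resident-like markers at 307, 234, 129 and 95.2 CPM, so both were lower in LNP-Sirpa. The 5 monocyte markers were at 2514, 2675, 4149 and 2930 CPM, higher in LNP-Sirpa. Their part in the Lpl difference was not tested.

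In the inflammatory macrophage gate Lpl was 68.2, 55.7, 17.7 and 25.2 CPM, from 73, 115, 78 and 98 UMIs, and again the groups did not overlap. It changed by -1.38 ± 0.25 log2 units (edgeR, adjusted p 0.0267), 1 of 10 genes called where 2.08% of all genes were. This call was not made without control 1 (-1.31, adjusted p 0.129), without control 2 (-1.46, adjusted p 0.112), with doubled thresholds (-0.75, adjusted p 0.638) or without the cells that also passed the monocyte gate (-1.18, adjusted p 0.0605). The gates share 547 cells, 30.2% of monocytes, so these are not separate observations.

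**Figure D3:**
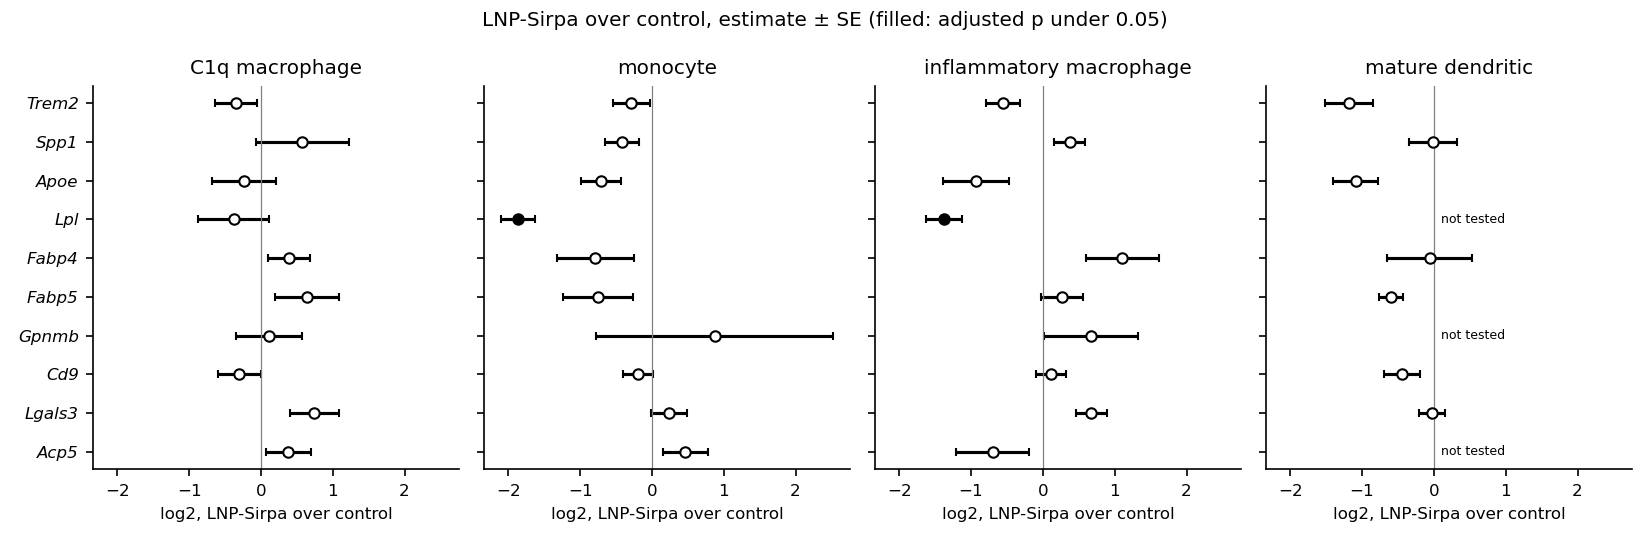
Difference between LNP-Sirpa and control (log2, estimate ± SE over 2 and 2 libraries) for the 10 genes in C1q macrophages, monocytes, inflammatory macrophages and mature dendritic cells; filled points passed the test. Only Lpl in monocytes and inflammatory macrophages is filled.

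The Fabp5 estimates had opposite signs in C1q macrophages and monocytes. C1q macrophages held 393, 747, 592 and 1002 CPM and monocytes 393, 665, 175 and 422 CPM. Neither gate alone passed the test, with 0.64 ± 0.45 (adjusted p 0.555) and -0.75 ± 0.49 (adjusted p 0.607) by edgeR. The difference between the 2 effects, tested with the library as a block, was 1.39 ± 0.18 log2 units (edgeR, adjusted p 6.99e-11), 1 of 10 genes called where 0.991% of all genes were. It was called without each library in turn, at 1.22 to 1.59.

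Lgals3 differed in the same way between the monocyte/macrophage gate and dendritic cells, where it measured 1714, 1651, 1653 and 1287 CPM. The difference of effects was 0.96 ± 0.21 log2 units (edgeR, adjusted p 0.00174), 1 of 10 genes where 0.829% of all genes were called. It was not called without control 1 (0.82, adjusted p 0.839) or without control 2 (1.04, adjusted p 0.976). Between the monocyte/macrophage gate and T cells 0 of 10 differences of effects were called (0.969% of all genes), with 0 of 10 at an unadjusted p under 0.05 (10.2% of all genes).

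**Figure D4:**
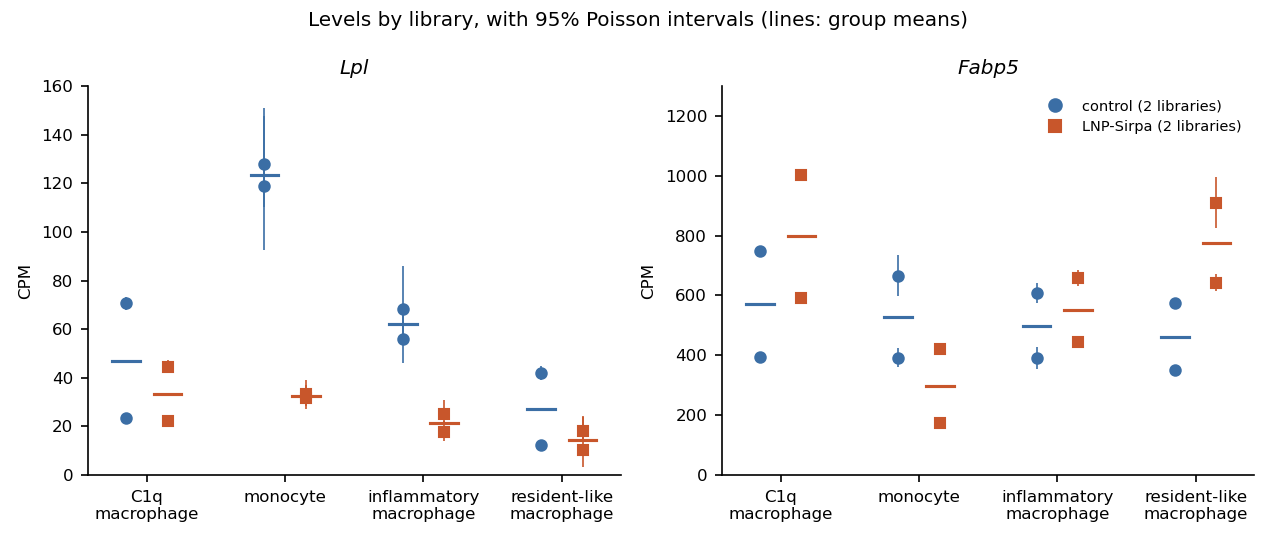
Level of Lpl and Fabp5 (CPM) in 4 gates, 1 point per library with a 95% Poisson interval that covers counting error only and lines at the group means. Lpl in monocytes and inflammatory macrophages separates the groups, and Fabp5 in C1q macrophages and monocytes shows the opposite order of group means.

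In the fibroblast/stromal gate Fabp4 was 48.6, 20.3, 1.24 and 2.62 CPM and was called lower in LNP-Sirpa, at -4.22 ± 0.60 log2 units (edgeR, adjusted p 0.0424), 1 of 10 genes where 0.745% of all genes were. The value rests on 1 cell in each control library, with 236 of 265 UMIs (89.1%) in control 1 and 73 of 100 (73%) in control 2. Without cells holding at least 2 UMIs of endothelial markers (Pecam1, Cdh5, Kdr, Egfl7) the levels were 1.36, 2.77, 1.24 and 1.35 CPM and Fabp4 was too low to be tested. The summed endothelial markers of the gate were at 54.8, 13.4, 4.94 and 10.9 CPM. The call was also lost in 5 of 11 alternatives.

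In the other gates no member was called: 0 of 10 in resident-like (1.27% of all genes) and cycling macrophages (0.288%), 0 of 9 in all dendritic cells (2.35%), 0 of 7 in mature dendritic cells (1.89%), 0 of 9 in T (0.223%), CD8 T (0.174%) and other T cells (0.402%), 0 of 7 in regulatory T (0.379%) and NK cells (0.485%). The lowest adjusted p in mature dendritic cells was 0.0904, for Trem2 at -1.18 ± 0.33 log2 units (edgeR). Trem2 stood there at 11.7% to 16.9% of the monocyte/macrophage level, beside 10.8% to 15.6% for the summed C1q genes. The part of free RNA in this value was not tested. Genes not counted here were under the filter on low counts in that gate.

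The wider list of lipid and lysosome handling held 48 genes, and 47 were tested in the monocyte/macrophage gate. Over T cells 37 were higher and 6 lower (edgeR, all genes 56.5%), and those with the smallest p were the lysosomal protease Ctsl (2.73 ± 0.078 log2 units), the scavenger receptor Msr1 (2.83 ± 0.085) and the lysosomal membrane proteins Cd63 (2.57 ± 0.079) and Lamp1 (2.21 ± 0.076). Over NK cells 36 were higher and 4 lower (all genes 40.5%), with the integrin Itgb3 at -4.48 ± 0.21 log2 units. Over dendritic cells 38 were higher and 1 lower (34.3%), and over stromal cells 38 and 3 (66.3%). Between C1q macrophages and monocytes the list split, with 15 higher and 13 lower (25.5%). Cd63 (2.17 ± 0.096), Ctsb (1.11 ± 0.086), Hexa (1.03 ± 0.094) and Pld3 (1.04 ± 0.11), all lysosomal, were among the higher. The median of the list in that comparison was -0.022 and that of the 10 members 0.042, beside 0.035 over all genes.

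Between LNP-Sirpa and control, 0 of 47 genes of the list were called in the monocyte/macrophage gate, with 14 at an unadjusted p under 0.05, against 2% and 20.4% of all genes. In the inflammatory gate 2 of 46 rose, against 1.65% of all genes. Plin2, which coats lipid droplets, was at 359.8, 457, 1035 and 756 CPM and Cd36, a fatty acid and lipoprotein receptor, at 93.5, 89.2, 148 and 178 CPM. Both LNP-Sirpa values were above both controls for each gene. The share of all genes without overlap was not taken in this gate, and in the monocyte/macrophage gate it was 52.9%. Plin2 rose by 1.26 ± 0.24 log2 units (edgeR, adjusted p 0.0331) and Cd36 by 0.97 ± 0.20 (adjusted p 0.0396). For each gene 4 of 12 alternatives lost the call. Among them were those without control 1, without control 2 and with doubled thresholds (edgeR, adjusted p 0.126 and 0.228 for the last).

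UMIs of the members were spread unevenly over thinned monocyte/macrophage cells, by a measure that also rises as a gene is scarcer. The 5% of cells with most UMIs held 16.2% to 25.6% of those of Apoe, 18.9% to 27.1% of Trem2, 28.4% to 46.7% of Spp1 and 58.2% to 81.2% of Acp5. For Lpl the shares were 68.1%, 100%, 93.2% and 100%, and for Gpnmb and Fabp4 they were 100% in each library. A share of 100% arises where no more than 5% of thinned cells had a UMI, so it gives no measure of spread. Correlations between members across single cells were weak, and they share depth and free RNA. The highest, Spp1 with Lgals3, was 0.287 to 0.330 over the 4 libraries, Trem2 with Apoe was 0.208 to 0.256, and Apoe with Lgals3 was lowest at -0.267 to -0.003.

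Over 43 sums of a gate and a library, which share libraries and free RNA, the genes most like each member were ranked among 6636 genes by Pearson correlation of log2(CPM + 1). Trem2 was most like Lyz2 (0.943), Csf1r (0.940) and Ctsb (0.901). Apoe was most like the 3 C1q genes (C1qa 0.896, C1qb 0.893, C1qc 0.869), which also gate the cells. Gpnmb was most like Ctsl (0.762), Spp1 like Prdx6 (0.790), Lpl like Clec5a (0.792), Fabp4 like Anxa3 (0.805), Fabp5 like Arl5c (0.840), Cd9 like Atf3 (0.838), Lgals3 like Tgfbi (0.834) and Acp5 like Ms4a6b (0.832). Among the members themselves, Trem2 and Apoe were most alike (0.813) and Acp5 and Cd9 least (-0.333).

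Gpnmb was concentrated in few cells. After its values were seen, cells with at least 3 thinned Gpnmb UMIs were set apart: 7, 39, 12 and 17 cells, which held 40%, 41.5%, 35.4% and 20.6% of thinned Gpnmb UMIs. These cells had higher levels than the remaining macrophages of the same library in 4 of 4 libraries for Spp1, Fabp5, Cd9, Lgals3, Plin2 (median ratio 4.28), Cd36 (4.32), the cholesterol exporter Abcg1 (3.28) and the proton pump subunit Atp6v0d2 (10.9). Trem2 was higher in 2 of 4, and C1qa lower in 4 of 4 (median ratio 0.565). In the control libraries 4 of 7 and 24 of 39 of these cells were in the C1q macrophage gate, and in LNP-Sirpa 2 of 12 and 3 of 17. In the LNP-Sirpa libraries 8 and 6 were in the inflammatory gate and 1 and 6 in the monocyte gate, so they are not of 1 subset. With so few cells, this is a description without a test.

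**Figure D5:**
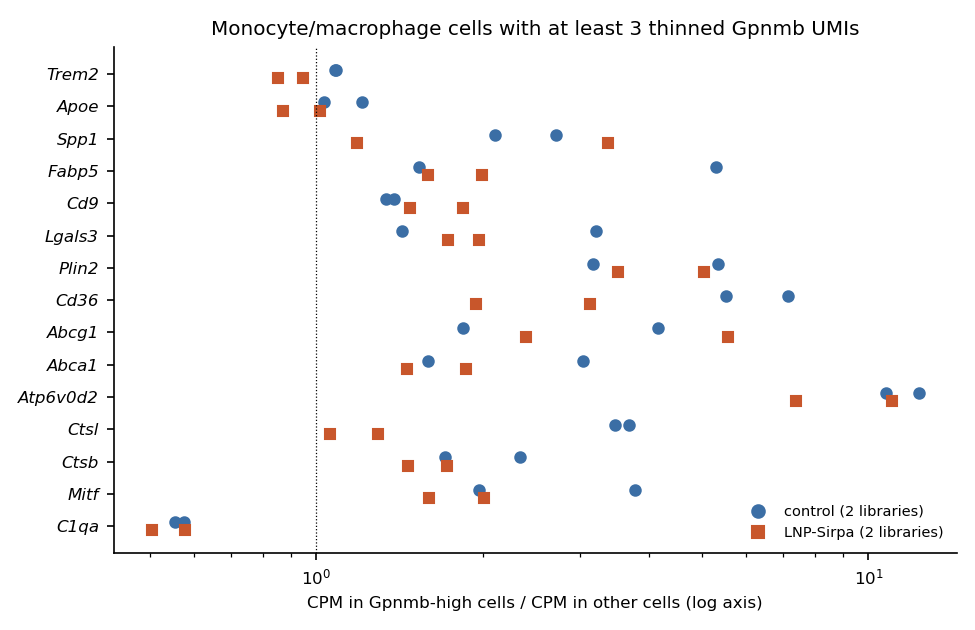
Ratio of CPM in cells with at least 3 thinned Gpnmb UMIs to CPM in the remaining monocyte/macrophage cells (log axis), 1 point per library, for genes chosen after their values were seen. Atp6v0d2, Plin2 and Cd36 are above 1 in all 4 libraries, C1qa is below 1, and Trem2 and Apoe lie near 1.

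Part of Acp5 came from very few cells. After the values were seen, 12 cells with high Ctsk were set apart, 1, 5, 3 and 3 per library, of which 4 were in the monocyte/macrophage gate and 8 in no gate. They held 6.82%, 17.1%, 14.9% and 2.83% of the library's Acp5 UMIs. Their pooled Acp5 level was 12380 CPM against 57.4 CPM in the remaining macrophages, and their Ctsk level of 11908 CPM restates how they were chosen. Other genes known from bone-resorbing cells were Mmp9 at 4532 against 1.87 CPM, Nfatc1 at 822 against 46.6 CPM and Ocstamp at 228 against 2.79 CPM. Lpl was at 483 against 40.7 CPM. Gpnmb was 27.8 against 23.4 CPM. Without these cells the monocyte/macrophage Acp5 levels were 39.7, 71.6, 67.7 and 49.3 CPM.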

How the data were processed

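UMI counts per gene and cell were deposited by the authors as sparse matrices, made with PISA 1.0 per the file headers. STAR 2.5.1b and the GRCm39 build are named in the submitters' processing notes. The 4 oligo libraries were not analysed here. Cells with at least 500 UMIs, at least 300 genes and at most 15% mitochondrial UMIs were kept, and 40 were left out. Gates used summed marker UMIs above a minimum and a rate per 10000 UMIs (monocyte/macrophage 4 UMIs and 10 per 10000, T 4 and 8, NK 3 and 4, C1q macrophage 4 and 50, monocyte 4 and 10, inflammatory macrophage 4 and 10), with thresholds set on the data. The 3612 cells passing gates of several lineages were left out; no doublet caller was run, and 4342 cells passed no gate. The subset gates within the monocyte/macrophage gate may overlap.

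Counts were summed per library and gate and tested with edgeR 4.0.16 (TMM, filterByExpr, robust quasi-likelihood test) in R 4.3.3. Each gate or comparison was a separate fit, with Benjamini-Hochberg adjustment over all genes tested in that fit and none across gates. LNP-Sirpa was tested against control only in gates of at least 20 cells in each library. Comparisons between gates and of effects had the library as a block. DESeq2 1.42.0 was an alternative, beside other size factors, no filter on low counts, stricter cell filters, doubled gate thresholds, mixed cells kept, a replicate block and each library left out. Alternatives without overlapping cells, and without Ctsk-high or endothelial-marker cells, were chosen after seeing the data. Intervals are exact, at 95%, and cover counting error only. Shares of cells were thinned to 2000 UMIs with Python 3.11.15. In a test on counts drawn with known changes for the monocyte/macrophage comparison (16152 genes, 200 changed), 42% of changes of 1 log2 unit and 90% of changes of 2 log2 units were called. These shares were 27% and 79% for monocytes (10266 genes) and 20% and 61% for the difference of effects between C1q macrophages and monocytes (13920 genes), and 19% and 47% for that between monocyte/macrophage and dendritic cells (15317 genes). Counts in that test were drawn with the spread fitted as a trend over expression level, not with each gene's own spread. The shares therefore do not apply to genes that vary more between libraries than the trend. The 10 genes, the gate markers and the list of 48 genes were chosen with earlier results of these data known. Named genes were the 10 members, up to 4 genes of the list with the smallest p per comparison, and the 3 most correlated genes of each member. Promoter windows are those of the RefSeq table; 3 members had no entry.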

Additional observations from a re-analysis of the deposited data

Results flagged for a closer look

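The effect of LNP-Sirpa differed between 2 gated cell types for 2 of the 10 genes and 2 genes of the wider list, each by the edgeR interaction test with the library as a block. For Fabp5 the log2 change in C1q macrophages minus that in monocytes was 1.39. For Lgals3 the change in the monocyte/macrophage gate minus that in dendritic cells was 0.96. Itgax, which encodes the integrin CD11c, differed by 1.08 between C1q macrophages and monocytes (adjusted p 1.79e-04) and by 1.22 between the monocyte/macrophage gate and dendritic cells (adjusted p 0.00337). It was at 49.6, 67.7, 109 and 76.4 CPM in C1q macrophages, 87.5, 103, 75.5 and 65.7 in monocytes and 111, 85.1, 72.2 and 72.8 in dendritic cells. Cd44, a receptor of osteopontin, differed by 0.85 between the monocyte/macrophage gate and dendritic cells (adjusted p 0.041). Leaving out 1 library ended the Itgax call against monocytes in 1 of 4 cases (without control 1, 0.93, adjusted p 0.114), and ended the Itgax and Cd44 calls against dendritic cells in 3 of 4 cases each.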

How the results depend on the processing

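The members called between LNP-Sirpa and control were 0 in the monocyte/macrophage gate and 0 to 1 without 1 library. In the 13 other gates they were 3 of 117, 6 to 16 without 1 library, 16 with no filter on low counts, 5 with mixed cells kept and, in 3 gates refitted without overlapping cells, 1. Fits that leave 1 library in a group assume that it varies like the others. Replicate numbers gave 2 pairs that share only a number (correlation of deviations 0.015); with the replicate block 6 members were called in the 13 gates, 2 of them among the 3, and 0 in the monocyte/macrophage gate. Doubled thresholds left 12 of the 13 gates testable and called 2. Of 30 differences of effects between gates 2 were called, and 1 to 7 without 1 library, which held 1 or 2 of those 2. The 52 of 60 calls between gates became 51 to 53. Shares of monocyte/macrophage cells with a UMI, as means of 4 libraries, rose without thinning: Trem2 from 52.3% to 74.8%, Gpnmb from 3.35% to 7.89%, Spp1 from 67% to 83.2%, Apoe from 86.4% to 94.9%, Lpl from 5.54% to 13.8%, Fabp4 from 1.2% to 3.42%, Fabp5 from 45.8% to 66.5%, Cd9 from 40.2% to 68% and Acp5 from 8.88% to 22.3%. Single values were followed only if called in the main fits, or if a member's LNP-Sirpa difference in the monocyte/macrophage gate. Calls gained elsewhere, such as 13 in other gates with no filter on low counts, are therefore not among them. Among those followed no call changed direction. Of their alternatives, 504 kept their side of the threshold and their direction, 43 lost a call, 2 gained one and 14 uncalled values moved. The cause was not tested for these changes, except that thinning leaves fewer UMIs per cell.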

Other observations

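The neutrophil and mast/basophil gates held too few cells in some libraries for a test, and their values stand as levels only. Cd9 was at 929, 1532, 832 and 1227 CPM in the 15, 19, 185 and 120 cells of the neutrophil gate (S100a8, S100a9, Csf3r, Cxcr2 and Retnlg), above the monocyte/macrophage value of the same library in 4 of 4 libraries. Trem2 was at 209.7, 163, 54.9 and 122 CPM there, below it in 4 of 4. Spp1 in this gate ranged from 569 to 3246 CPM. In the mast/basophil gate Fabp4 had no UMI in any library, and Apoe was at 476, 1271, 484 and 185 CPM.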
